A study of Mus musculus with 6 samples.

Results

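The STAT, JAK and SOCS genes outside the interleukin-2 axis were followed in mouse adaptive regulatory T cells (aTreg) with and without the bone morphogenetic protein (BMP) receptor BMPR1a. They are 8 genes of the 25759 in the expression table: the transcription factor genes Stat2, Stat3, Stat4 and Stat6, the kinase genes Jak2 and Tyk2, and the inhibitor genes Socs1 and Socs3. Their Ensembl identifiers were matched to mouse symbols, and all 8 were found. RNA was sequenced from 6 libraries, 3 wild type (WT) and 3 BMPR1a-deficient. All donors were C57BL/6 mice of 8 to 12 weeks that carried a Foxp3-GFP reporter, which marks cells expressing the regulatory T cell factor Foxp3. The WT mice were normal B6 mice, and the deficient mice were BMPR/CD4cre animals. In these a Cre recombinase under Cd4 control is active from the stage at which thymocytes express CD4, so other T cells than the regulatory ones lack the receptor too. Lymph node and spleen cells of both groups were cultured for 3 days with concanavalin A, a lectin that activates T cells, at 2 µg/ml. The medium also held TGF-beta at 3 ng/ml and the growth cytokine IL-2 at 10 ng/ml, after which CD4+ Foxp3-GFP+ cells were sorted. The labels do not say whether the WT mice carried the Cre. IL-2, which signals through STAT5, was added to both groups. Nothing in the labels ties the libraries to separate animals or cultures. The p-values therefore cover the spread of these 6 samples alone, and that spread may be technical.

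Most cytokine receptors have no kinase of their own. They carry Janus kinases (JAKs), which phosphorylate the receptor and then STAT proteins when a cytokine binds, and the STATs pair up, enter the nucleus and switch genes on. In CD4 T cells STAT3 is used by IL-6, IL-10, IL-21 and IL-23, STAT4 by IL-12, STAT6 by IL-4 and IL-13, and STAT2 by type I interferon in a complex that holds IRF9. SOCS proteins are induced by this signalling and bind receptors or kinases to shut it down.

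Of the 8 genes, 0 passed the threshold between the groups, against 1.07% of the 13413 genes tested, 0.746% higher and 0.321% lower (limma on log2(FPKM + 1), Benjamini-Hochberg adjusted p under 0.05 over all genes). FPKM are fragment numbers divided by transcript length and by the size of the mapped library. All 8 passed the filter, a mean FPKM of at least 1. At an unadjusted p under 0.05 there were 3, against 15.2% of all genes tested. Stat3 was the 1 on the higher side, where 9.29% of all genes lay, and Stat4 and Socs3 were the 2 on the lower side, with 5.87%. In the same 3 genes the groups did not overlap, which held for 26.3% of all genes (15.9% higher and 10.4% lower). By mean, Stat4 and Socs3 in BMPR1a-deficient aTreg were at 51.0% and 49.3% of the WT level, and Stat3 was at 119%. Stat6, Jak2 and Tyk2 lay between 96.9% and 104% of WT.

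Before the genes are taken in turn, the libraries need a word. Approximate depths, read from the smallest steps in the FPKM values, lay between 30800000 and 38700000 fragments. Behind the 8 genes this puts from about 860 fragments (Socs3 in BMPR1a-deficient replicate 1) to about 37000 (Stat3), a counting error of at most about 3.4%. BMPR1a-deficient replicate 1 stood apart. Its 13 mitochondrially encoded protein transcripts summed to 5335 FPKM, against 44657 and 44713 in the other deficient libraries and 50442 to 53789 in WT. The groups did not differ past the threshold in mt-Co1 (6766 ± 286 FPKM in WT and 4023 ± 2566 in deficient aTreg, limma adjusted p = 0.476) or mt-Co2 (6730 ± 39.5 and 4105 ± 2480, adjusted p = 0.475). Results are therefore also given without BMPR1a-deficient replicate 1. The 6 markers of T and regulatory T cells, with Cd4, Cd3e and Foxp3 among them, were present in every library, summing to 1193 to 1339 FPKM. Bmpr1a, the gene removed, had a mean of 1.68 FPKM in WT and 0.617 in deficient libraries, without overlap (log2 fold change -0.71, limma adjusted p = 0.183). It passed the filter only through the WT libraries.

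**Figure D1:**
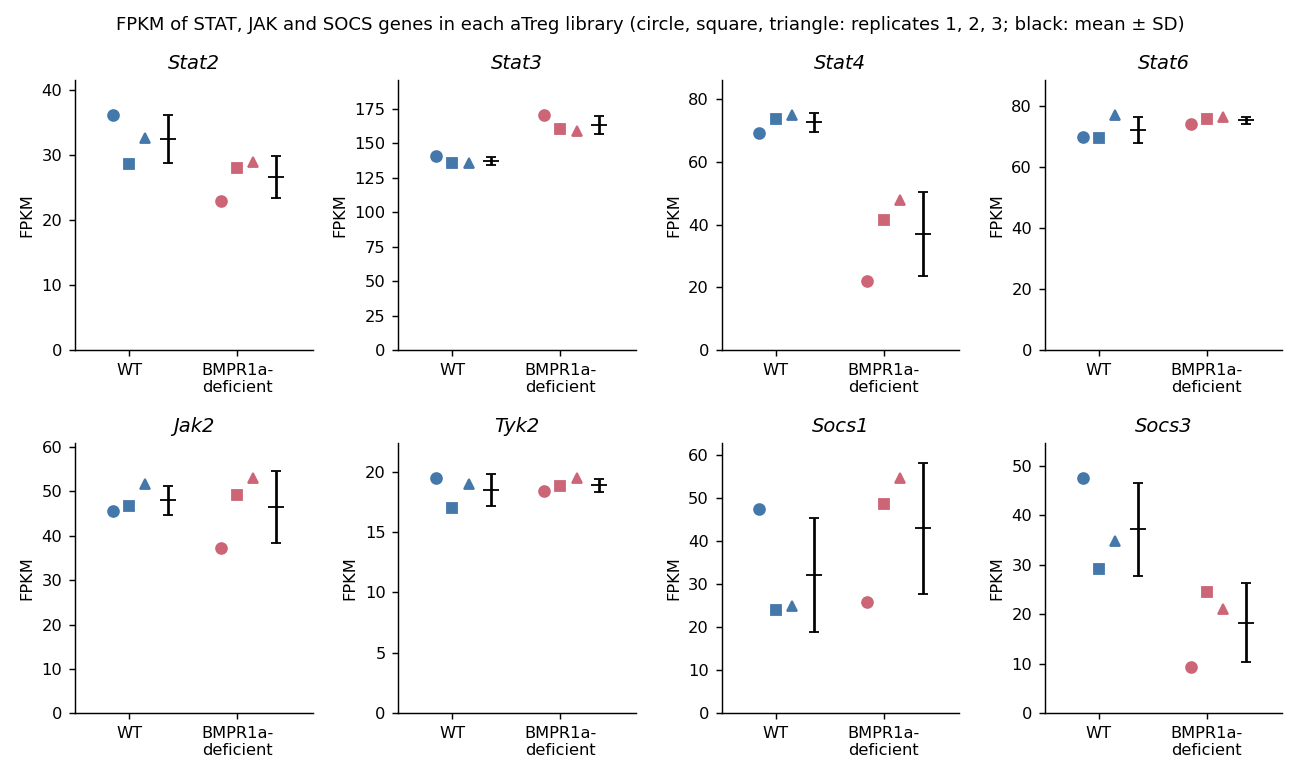
FPKM of each gene in the 3 WT and 3 BMPR1a-deficient libraries, 1 panel a gene, each axis starting at 0, with mean ± SD in black. Stat3, Stat4 and Socs3 are the panels in which the groups do not overlap, and BMPR1a-deficient replicate 1 (red circle) is the lowest library for Stat4, Socs3, Jak2 and Stat2.

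Levels can be set beside each other because FPKM are per length. In WT aTreg Stat3 stood highest with a mean of 137 FPKM, higher than 93.2% of the genes tested. Stat4 and Stat6 came next at 72.7 and 72.0 FPKM, and their ranges overlapped. Jak2 followed at 48.0, then Socs3 at 37.2, Stat2 at 32.5 and Socs1 at 32.1 FPKM, a run in which each neighbour overlapped the next. Tyk2 was lowest at 18.4 FPKM, below every library of the other 7. In BMPR1a-deficient aTreg the order was Stat3 (163 FPKM), Stat6 (75.2), Jak2 (46.5), Socs1 (43.0), Stat4 (37.1), Stat2 (26.7), Tyk2 (18.9) and Socs3 (18.3). There the range of Stat4 lay below that of Stat6 and overlapped those of Jak2 and Socs1. Socs3 overlapped Tyk2, which it exceeded in every WT library. Stat3 and Stat6 were the 2 genes at the top, with ranges that touched no other.

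Among the 4 STAT genes, Stat4 had the largest fold change (ENSMUSG00000062939, chromosome 1, 51987148 to 52107189, plus strand, GRCm38). It encodes the factor through which IL-12 drives interferon-gamma production in Th1 cells. The WT libraries held 69.2, 73.8 and 74.9 FPKM, and BMPR1a-deficient replicates 1, 2 and 3 held 22.0, 41.6 and 47.7. The WT libraries lay within a few units of each other, the deficient ones were spread out, and the highest deficient library was below the lowest WT one. The log2 fold change was -1.02 (SE 0.285, 95% interval -1.72 to -0.33), which did not pass the threshold (limma adjusted p = 0.189). The exact permutation test, two-sided, returned 0.1, its lowest possible p with 3 libraries against 3. Without BMPR1a-deficient replicate 1 the difference was smaller and passed, at -0.69 (SE 0.0872, limma adjusted p = 0.0434), in a fit that called 1.72% of its genes (0.604% lower). Over the 6 fits that left out 1 library Stat4 ran from -1.24 to -0.69 and passed in 1. In a fit that weighted the libraries by their quality it was -0.74 and passed (limma adjusted p = 0.0246), where 9.24% of all genes passed (3.03% lower). The annotation places a noncoding transcript, Gm28177, on the same strand across 26.7% of the annotated exon bases of Stat4. The deposited values list no gene under that symbol, and how reads in that stretch were assigned was not tested.

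RefSeq (GRCm38.p6) gives 2 starts for Stat4. Their windows of 250 bases before and 50 after the start are shown because this is the STAT gene with the widest difference. Capitals mark GAAANNGAAA, the core of an interferon response element, which was searched on both strands along with TTCNNNGAA, the gamma-activated site that most STAT dimers bind, and TTCNNNNGAA, the wider spacing preferred by STAT6. The first window is chr1:51986898-51987197 and the second, at an inner start, chr1:52007990-52008289, both on the plus strand.
Stat4 outer start: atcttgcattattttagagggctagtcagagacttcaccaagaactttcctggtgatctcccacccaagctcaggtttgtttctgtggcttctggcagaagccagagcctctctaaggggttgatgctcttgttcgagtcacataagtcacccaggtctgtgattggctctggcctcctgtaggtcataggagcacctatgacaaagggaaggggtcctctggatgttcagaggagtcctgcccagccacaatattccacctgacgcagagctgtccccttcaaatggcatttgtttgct
Stat4 inner start: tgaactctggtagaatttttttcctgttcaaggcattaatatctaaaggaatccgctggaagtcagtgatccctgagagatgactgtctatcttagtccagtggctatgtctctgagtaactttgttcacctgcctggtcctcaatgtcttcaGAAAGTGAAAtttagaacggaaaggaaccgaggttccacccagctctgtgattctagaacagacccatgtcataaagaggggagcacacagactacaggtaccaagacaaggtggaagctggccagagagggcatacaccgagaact
The inner window holds 1 match, from 97 to 88 bases before the start, and the outer one none of the 3 motifs. Of the 32851 promoter windows, 3.44% hold GAAANNGAAA, 8.30% TTCNNNGAA and 6.95% TTCNNNNGAA. All 8 genes were matched, with 9 windows, of which 3 hold GAAANNGAAA (Stat2, Socs1 and the inner Stat4 window), 1 TTCNNNGAA (Socs3) and 1 TTCNNNNGAA (Stat2). A match describes the letters and not a site in use.

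Stat3 (ENSMUSG00000004040, chromosome 11, 100885098 to 100939540, minus strand) is the factor that IL-6 and IL-21 use to favour Th17 cells, and through which IL-10 acts. WT libraries held 140, 135 and 136 FPKM, and deficient ones 170, 160 and 159. Each deficient library was above each WT library, with 140 FPKM the highest WT value and 159 the lowest deficient one. In WT the replicates were tighter than for any other gene of the 8, with a coefficient of variation of 2.08%. The log2 fold change was 0.25 (SE 0.0940, 95% interval 0.020 to 0.48), short of the threshold (limma adjusted p = 0.305). It stayed between 0.21 and 0.29 under all 17 alternatives and passed in 0 of them, with adjusted p between 0.0546 and 0.651. Stat5a, the neighbouring gene on the opposite strand, shares 72 exon bases with the end of Stat3, 0.756% of its annotated exon bases. Strand handling is not given in the sources used here, so reads in that stretch cannot be told apart.

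The members of each family also differed from each other within a library. Stat3 over Stat4, a ratio that does not depend on the scaling between libraries, was 2.03, 1.83 and 1.81 in WT libraries, against 7.76, 3.86 and 3.33 in deficient ones. All deficient libraries were above all WT ones, which follows from the values of the 2 genes given above. Socs1 over Socs3 was 0.997, 0.821 and 0.713 in WT and 2.76, 1.98 and 2.58 in the deficient libraries, again without overlap. Socs3 thus exceeded Socs1 in each WT library, and Socs1 exceeded Socs3 in each deficient one. Jak2 over Tyk2 overlapped, at 2.34, 2.76 and 2.72 in WT and 2.03, 2.62 and 2.72 in the deficient libraries. These ratios were chosen after the values were seen and are a description with no test.

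**Figure D2:**
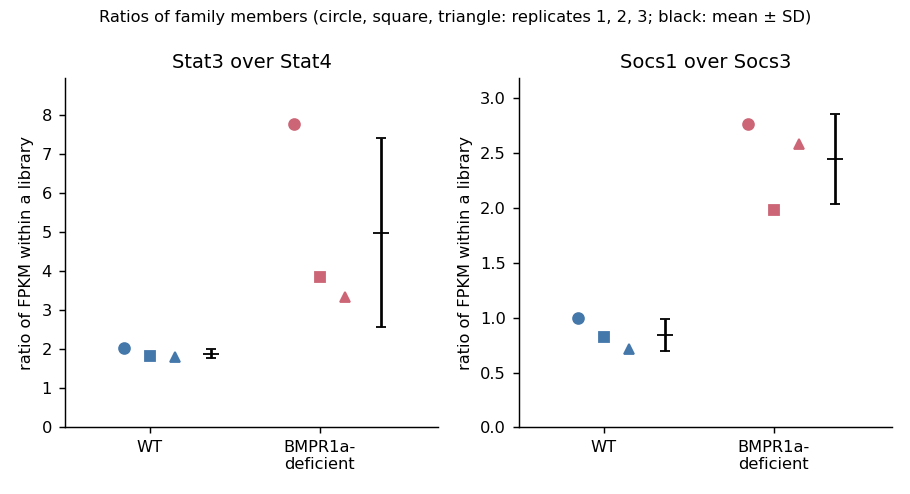
Ratio of Stat3 to Stat4 and of Socs1 to Socs3 in each library, with mean ± SD in black. The WT libraries lie between 1.81 and 2.03 for the first ratio and between 0.713 and 0.997 for the second, below all deficient libraries in both.

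Stat6 (ENSMUSG00000002147, chromosome 10, 127642986 to 127660957) transmits the signal of IL-4 in Th2 cells. It was at 69.8, 69.5 and 76.9 FPKM in WT libraries, against 73.9, 75.5 and 76.1 in deficient ones, and the groups overlapped. The 95% interval of its log2 fold change ran from -0.16 to 0.29 around 0.062 (limma adjusted p = 0.756). Stat2 (ENSMUSG00000040033, chromosome 10, 128270559 to 128292849) was at 36.2, 28.7 and 32.6 FPKM in WT and 23.0, 28.1 and 29.0 in deficient aTreg. The means were lower in the deficient cells, with an overlap of 1 library on each side, and the log2 fold change was -0.28 (95% interval -0.61 to 0.058, limma adjusted p = 0.399). Its direction was the same in all 17 alternatives, from -0.36 to -0.17. Irf9, which encodes its DNA-binding partner in the interferon complex, did not pass either, at 64.4 ± 6.46 FPKM in WT and 52.9 ± 14.1 in deficient aTreg (SD, n = 3 each, limma adjusted p = 0.538).

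On chromosome 11 Stat3 lies beside Stat5a and Stat5b, the factors of the IL-2 axis. Stat5a rose by a log2 fold change of 0.73, from 49.1 ± 1.42 FPKM in WT to 82.2 ± 6.34 (SD, n = 3 each, limma adjusted p = 0.0399), and Stat5b was at 87.3 ± 4.81 and 94.6 ± 9.62. Differences between neighbours were not tested.

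Neither kinase gene passed the threshold. Jak2 (ENSMUSG00000024789, chromosome 19, 29251828 to 29313080) serves receptors for IL-12, IL-23 and interferon-gamma. It was at 45.5, 46.7 and 51.6 FPKM in WT and 37.2, 49.2 and 52.9 in deficient aTreg. Only BMPR1a-deficient replicate 1 was outside the WT range on the low side, and replicate 3 was just above it. The log2 fold change was -0.058 (95% interval -0.43 to 0.32, limma adjusted p = 0.867) with all libraries and 0.090 without replicate 1. Tyk2 (ENSMUSG00000032175, chromosome 9, 21104068 to 21131243) pairs with JAK2 or JAK1 at receptors for IL-12, IL-10 and type I interferon. It was at 19.4, 16.9 and 19.0 FPKM in WT and 18.4, 18.8 and 19.4 in deficient aTreg, with a log2 fold change of 0.033 (95% interval -0.19 to 0.25, limma adjusted p = 0.872). The groups overlapped in both genes. The intervals give the size of change that these libraries leave possible, so equality is not shown. An antisense transcript, 1700084C06Rik, covers 8.07% of the Tyk2 exon bases and was at 3.05 to 5.47 FPKM. Jak1 and Jak3, which act with the IL-2 receptor, were at 174 ± 10.2 and 86.6 ± 8.84 FPKM in WT and 152 ± 23.3 and 73.7 ± 5.97 in deficient aTreg (limma adjusted p = 0.532 and 0.426).

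**Figure D3:**
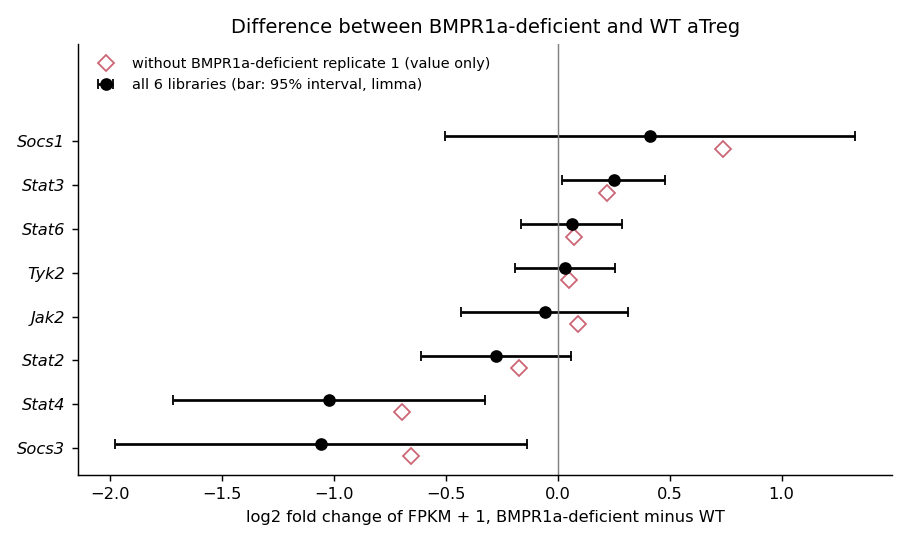
Log2 fold change of FPKM + 1, BMPR1a-deficient minus WT, for the 8 genes. Black points with 95% intervals use all 6 libraries, and red diamonds leave out BMPR1a-deficient replicate 1, which brings Stat4 from -1.02 to -0.69 and Socs3 from -1.06 to -0.66.

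Neither SOCS gene passed the threshold. Socs3 (ENSMUSG00000053113, chromosome 11, 117966079 to 117970047, minus strand) encodes the inhibitor that binds gp130, the shared receptor chain of IL-6, and restrains STAT3. WT libraries held 47.5, 29.2 and 34.8 FPKM, and deficient ones 9.33, 24.5 and 21.1. No deficient library reached the lowest WT one, and replicate 1 was again the lowest. The log2 fold change was -1.06 (SE 0.376, 95% interval -1.98 to -0.14), short of the threshold (limma adjusted p = 0.282). Leaving out BMPR1a-deficient replicate 1 gave -0.66 (limma adjusted p = 0.218). Socs3 passed in 0 of the 17 alternatives, with adjusted p between 0.0792 and 0.604.

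Socs1 (ENSMUSG00000038037, chromosome 16, 10782240 to 10785536, minus strand) encodes an inhibitor of the JAK kinases that interferon and IL-2 induce, and regulatory T cells need it to stay stable in inflammation. It was at 47.4, 24.0 and 24.8 FPKM in WT libraries, against 25.8, 48.6 and 54.5 in deficient ones. Each group thus held low and high libraries, and the groups overlapped. The log2 fold change was 0.41 (SE 0.375, 95% interval -0.50 to 1.33, limma adjusted p = 0.604). Leaving out BMPR1a-deficient replicate 1 gave 0.74 (limma adjusted p = 0.309). In WT its coefficient of variation of 41.3% was the highest of the 8 genes, followed by Socs3 with 25.2%, while the other 6 lay between 2.08% and 11.6%.

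The promoter windows of both SOCS genes are shown because these genes are known to be induced by STAT proteins and their motif matches differ. In capitals are TTCNNNGAA in the Socs3 window (chr11:117969317-117969616, minus strand) and GAAANNGAAA, matched at 2 overlapping places, in the Socs1 window (chr16:10785487-10785786, minus strand).
Socs3: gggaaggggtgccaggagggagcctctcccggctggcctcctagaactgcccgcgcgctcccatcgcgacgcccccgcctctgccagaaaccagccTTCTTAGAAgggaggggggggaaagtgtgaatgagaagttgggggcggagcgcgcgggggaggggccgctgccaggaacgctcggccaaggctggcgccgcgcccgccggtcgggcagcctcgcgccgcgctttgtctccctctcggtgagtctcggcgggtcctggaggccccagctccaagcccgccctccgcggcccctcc
Socs1: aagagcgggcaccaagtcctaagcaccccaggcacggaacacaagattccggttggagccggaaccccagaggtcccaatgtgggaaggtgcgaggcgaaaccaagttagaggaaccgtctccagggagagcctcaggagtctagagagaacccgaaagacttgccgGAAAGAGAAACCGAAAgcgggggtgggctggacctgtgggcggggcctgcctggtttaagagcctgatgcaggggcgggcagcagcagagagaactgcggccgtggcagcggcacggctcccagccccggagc
The Socs3 match TTCTTAGAA runs from 154 to 146 bases before the RefSeq start. That window lies wholly inside the annotated span of Socs3, which on the minus strand begins at 117970047. The Socs1 matches GAAAGAGAAA and GAAACCGAAA begin 83 and 77 bases before the Socs1 start and share bases. Neither window holds the motif marked in the other.

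Markers of other cells varied across the libraries in which Socs1 varied. The 9 myeloid markers summed to 150, 28.1 and 58.6 FPKM in WT and 23.1, 103 and 236 in BMPR1a-deficient replicates 1 to 3. Lyz2 had the highest mean of them in both groups. Next came Cd68 and Cd14 in WT (means 8.65 and 7.48 FPKM) and S100a8 and S100a9 in deficient aTreg (31.9 and 28.8). The 3 libraries with the highest sums, WT replicate 1 and deficient replicates 2 and 3, had the higher Socs1 values, 47.4 to 54.5 FPKM. Not every marker followed the sum. Csf1r, Cd14, Cd68 and Itgam were higher in WT replicate 3 than in deficient replicate 2, with Cd14 at 6.26 and 3.60 FPKM. Each of the 9 markers was above 0 in every library. Myeloid cells also express Socs1 and Socs3, and the part of these markers in the result was not tested. In bulk RNA, fewer cells of a type and less RNA per cell cannot be told apart. Socs3 was at 24.5 and 21.1 FPKM in the 2 deficient libraries with high myeloid signal and at 47.5 in WT replicate 1. The 5 B cell markers summed to 25.9 to 47.8 FPKM in WT and 27.9 to 47.5 in deficient aTreg, and the CD8 genes Cd8a and Cd8b1 to 32.0 to 41.8 and 37.9 to 68.4. Of the 5 NK cell markers, Ncr1 was listed at 0 in all WT libraries and only Eomes passed the filter (6.93 ± 2.03 and 4.92 ± 2.57 FPKM in WT and deficient aTreg, SD, n = 3 each). The neutrophil gene S100a9 was at 10.2, 0.469 and 0.933 FPKM in WT and at 2.54, 23.2 and 60.6 in deficient aTreg, and S100a8 averaged 5.90 ± 7.12 and 31.9 ± 32.2. Blnk was at 2.28 ± 0.175 and 2.99 ± 0.407 FPKM and Cd22 at 3.77 ± 1.23 and 2.92 ± 0.422. Cd8a was at 11.7, 9.56 and 8.80 FPKM in WT and at 13.8, 17.2 and 29.1 in deficient aTreg, so its groups did not overlap, while Cd8b1 was at 25.5 ± 3.99 and 30.1 ± 8.08. The Treg genes Ctla4 and Il2ra were at 254 ± 19.4 and 56.6 ± 16.0 FPKM in WT and at 170 ± 57.9 and 83.0 ± 20.3 in deficient aTreg. None of these passed the threshold (limma adjusted p from 0.236 to 0.634).

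**Figure D4:**
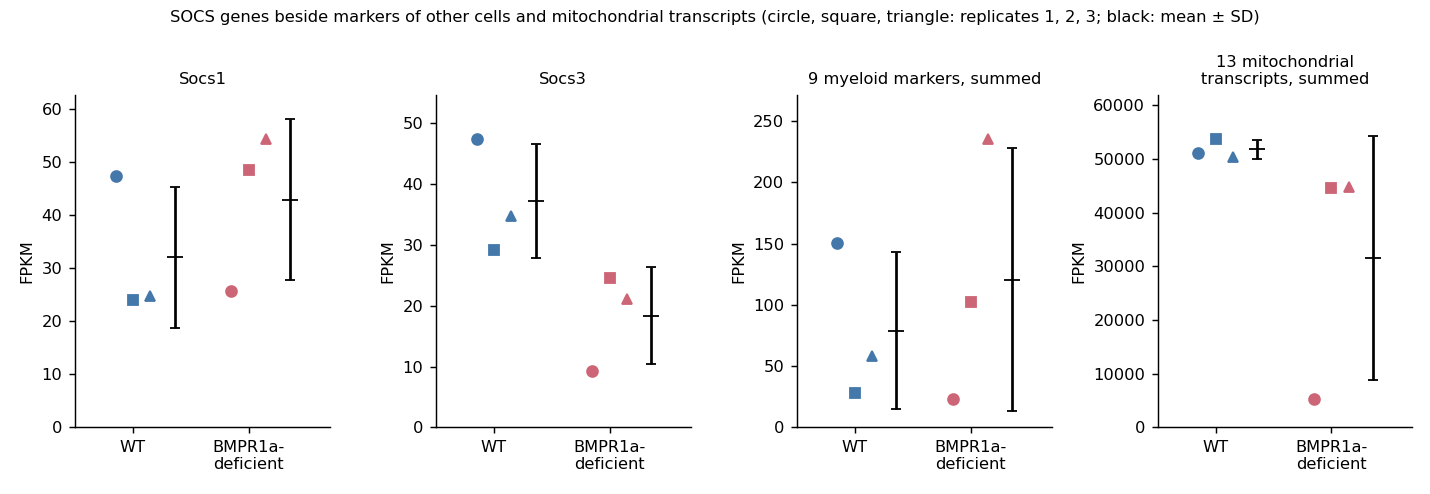
FPKM of Socs1 and Socs3 beside the summed FPKM of 9 myeloid markers and of 13 mitochondrially encoded transcripts, by library, with mean ± SD in black. WT replicate 1 (blue circle) and deficient replicates 2 and 3 are high for both Socs1 and the myeloid sum, and deficient replicate 1 is at 5335 FPKM in the mitochondrial sum.

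The rest of the pathway was described from lists that were chosen with earlier results of these data known. Their counts and medians, also where set beside all genes, are a description and not an independent test. Of the 9 JAK-STAT genes of the IL-2 axis, 1 rose (Stat5a) and 0 fell past the threshold, against 0.746% and 0.321% of all genes tested. The same shares of all genes apply to the lists below. The median log2 fold change of the 9 was 0.14, against 0.038 over all genes tested. Without BMPR1a-deficient replicate 1 these medians were 0.29 and 0.068. Cish, a SOCS family inhibitor that STAT5 induces, was at 12.5, 13.4 and 9.80 FPKM in WT and 17.4, 24.2 and 34.4 in deficient aTreg. Its groups did not overlap (log2 fold change 0.99, limma adjusted p = 0.165). Socs2, another STAT5-induced inhibitor, was at 16.5 ± 5.54 and 25.0 ± 5.19 FPKM (SD, n = 3 each, limma adjusted p = 0.342). Over the SOCS family, Socs3, Socs4 and Socs6 had lower means in deficient aTreg and Cish, Socs1, Socs2, Socs5 and Socs7 higher ones, none past the threshold. Socs6 was at 5.98 ± 0.162 and 5.41 ± 0.335 FPKM, also without overlap, and Socs4 at 9.51 ± 0.684 and 8.68 ± 1.38.

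Among 18 other regulators (Irf9, other SOCS genes, PIAS genes and phosphatases among them) 0 passed the threshold. At an unadjusted p under 0.05 (limma) there were 3, against 15.2% of all genes. The median log2 fold change was -0.074, and it turned positive, 0.082, without BMPR1a-deficient replicate 1. Usp18, which blocks the type I interferon receptor from binding JAK1, was at 24.7, 16.5 and 19.7 FPKM in WT and 5.68, 9.84 and 12.3 in deficient aTreg (log2 fold change -1.09, limma adjusted p = 0.163). Its deficient libraries all lay below its WT libraries. Socs5 was at 4.82 ± 0.354 and 7.18 ± 1.23 FPKM (0.48, adjusted p = 0.199).

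Of 21 cytokine receptor genes upstream 16 were tested and 0 passed, with 5 at an unadjusted p under 0.05 (limma), against 15.2% of all genes. Their median was -0.15, and -0.013 without BMPR1a-deficient replicate 1. The nearest to the threshold was Il4ra, the receptor chain that engages STAT6 and is itself a STAT6 target. It was at 39.6, 40.8 and 44.4 FPKM in WT and 25.5, 29.8 and 25.1 in deficient aTreg, with a log2 fold change of -0.62 (SE 0.107, limma adjusted p = 0.0702). Here BMPR1a-deficient replicate 1 was in the range of the others, and leaving it out gave -0.59 (limma adjusted p = 0.0798). Il9r, which encodes the IL-9 receptor, was low, at 0.853 ± 0.189 FPKM in WT and 2.36 ± 0.564 in deficient aTreg (limma adjusted p = 0.0978). Its WT mean was under the filter, which it passed only through the deficient libraries where it is high. That p-value is therefore given as a description. Il12rb2, the IL-12 receptor chain that recruits STAT4, was looked at after its values were seen. It was at 37.2, 33.6 and 29.2 FPKM in WT and 3.33, 16.1 and 22.7 in deficient aTreg, the same order of deficient libraries as for Stat4 (log2 fold change -1.50, limma adjusted p = 0.335). With replicate 1 left out the value was -0.76 (limma adjusted p = 0.133). Il23r, Lifr, Osmr, Lepr and Il13ra1 were below the filter.

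**Figure D5:**
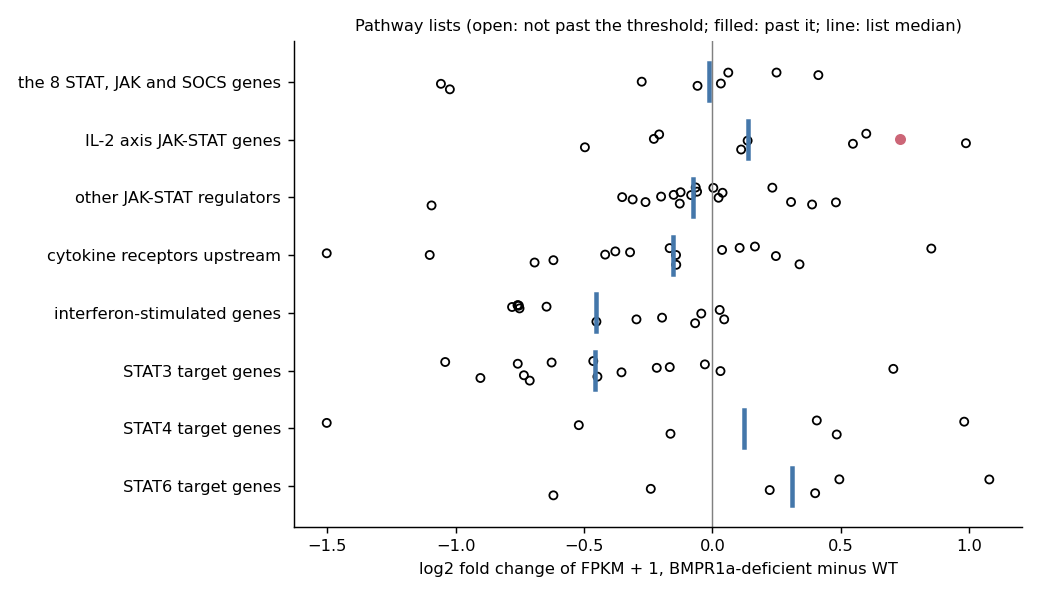
Log2 fold change of FPKM + 1, BMPR1a-deficient minus WT, of every tested gene in 8 lists, with the list median as a blue line. Stat5a is the filled point past the threshold, and the medians of the interferon-stimulated genes and the STAT3 targets lie at -0.45 and -0.46.

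Known target genes of the STATs had 0 members past the threshold in each list (limma). Of 16 interferon-stimulated genes, which the STAT2 complex drives, 13 were tested, with 5 at an unadjusted p under 0.05 (limma), all of them lower in deficient aTreg, against 5.87% of all genes on that side, and a median of -0.45. Without BMPR1a-deficient replicate 1 the median was -0.24. Oas3, an antiviral synthetase gene, was at 4.72, 5.60 and 5.80 FPKM in WT and 2.17, 2.71 and 3.52 in deficient aTreg (limma adjusted p = 0.111), and Cmpk2 was at 5.56 ± 0.538 and 3.05 ± 1.38 (adjusted p = 0.278).

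Of 19 STAT3 targets, 14 were tested and 12 had a negative fold change, against 5973 of the 13413 genes tested, with a median of -0.46, or -0.29 without BMPR1a-deficient replicate 1. At an unadjusted p under 0.05 (limma) 5 were lower and 1 was higher, against 5.87% and 9.29% of all genes. Pim1, a survival kinase gene, was at 93.7, 124 and 97.6 FPKM in WT and 53.5, 72.9 and 61.9 in deficient aTreg (log2 fold change -0.73, limma adjusted p = 0.128). Maf, which encodes the factor c-Maf that promotes IL-10, lay the other way at 8.59 ± 0.762 and 14.7 ± 2.43 FPKM (0.70, adjusted p = 0.0915). Many of these genes also answer to other signals, STAT5 among them.

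The 6 tested STAT4 targets were split, 3 with positive and 3 with negative fold changes, and a median of 0.12, or 0.040 without BMPR1a-deficient replicate 1. Of the 13413 genes tested, 7440 had positive and 5973 negative fold changes. Furin, a protease gene, was at 25.6 ± 2.04 and 36.2 ± 2.94 FPKM (log2 fold change 0.48, limma adjusted p = 0.119), and Il18r1, an IL-18 receptor chain, at 13.1 ± 1.12 and 8.87 ± 1.01 (-0.52, adjusted p = 0.120). Ifng, the cytokine gene that STAT4 is best known for, was at 1.47, 3.38 and 1.57 FPKM in WT and 4.16, 5.23 and 5.64 in deficient aTreg. Its deficient libraries were all above WT, opposite to Stat4 (limma adjusted p = 0.160). The 6 tested STAT6 targets, 4 with positive and 2 with negative fold changes, had a median of 0.31, or 0.49 without that library. Ccr8, a chemokine receptor gene, was at 58.0 ± 16.8 and 124 ± 35.3 FPKM (1.08, limma adjusted p = 0.192). Il4ra, given above among the receptors, had the smallest p of this list and lay the other way (-0.62, limma adjusted p = 0.0702). Of 16 cytokine genes that signal through these STATs, 15 were found and 4 tested (Ifng, Ebi3, Osm and Lif), with 0 past the threshold. Ifng was the 1 with an unadjusted p under 0.05 (limma), against 15.2% of all genes. Osm was at 6.18 ± 0.601 and 6.61 ± 1.45 FPKM. Il6, Il12a, Il12b, Il10 and Il4 were under the filter.

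For each of the 8, the protein-coding gene with the most similar pattern over the 6 libraries was found by the mean absolute distance of log2(FPKM + 1) after centring, among 10236 genes. For Stat4 it was Pde3b, a phosphodiesterase gene, at 32.6, 33.6 and 40.0 FPKM in WT and 8.89, 19.3 and 22.7 in deficient aTreg (mean distance 0.0678). For Socs3 it was Lef1, a T cell transcription factor gene, at 164, 137 and 153 and 52.4, 103 and 98.9 FPKM (distance 0.138). For Stat3 it was Txn2, which encodes mitochondrial thioredoxin, at 67.1 to 69.7 FPKM in WT and 80.0 to 83.7 in deficient aTreg (distance 0.0116). Sh2d3c came closest to Stat2, Alg12 to Stat6, Fam120b to Jak2 and Zfp526 to Tyk2, at distances of 0.0133 to 0.0281. Socs1 had no close neighbour, the nearest being C1ql3 at a distance of 0.158. A small distance is easily reached by genes that hardly vary.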

How the data were processed

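RNA was measured in 3 WT and 3 BMPR1a-deficient aTreg libraries. The deposited values are FPKM, one column per library, made by the authors, and 0 columns were left unmapped. TopHat2, Cufflinks, Cuffdiff and the build GRCm38.p4 are named per the submitters' processing notes. Versions, settings, annotation and strand handling were not stated, nor was any scaling between libraries. Without counts, no count model was used. GENCODE M21 (GRCm38) gave symbols and positions for 96.6% of identifiers.

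On log2(FPKM + 1), the 13413 genes whose mean FPKM reached 1 were compared between groups in R 4.3.3 (limma 3.58.1, trended eBayes, two-sided tests, Benjamini-Hochberg threshold 0.05). Fold changes are on that scale and understate changes of low genes. Single genes also had an exact permutation test. Intervals are 95% intervals of the fit. In simulated data for this comparison on 13413 genes, 63% of log2 changes of size 1 and 87% of size 2 were found, and 6.25% of its 160 calls were false. The simulated noise was normal, independent between genes and libraries, and had the same spread in both groups. Only genes with a mean log2(FPKM + 1) above 2 were changed. No simulated library stood apart as BMPR1a-deficient replicate 1 does, so these rates may not hold for the real libraries.

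Depth was estimated from 4318 genes with one exon structure, as the densest low value of FPKM times length, read as 1 fragment and searched within a set range. It is approximate, and counting error covers counting only.

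The 8 genes and the lists were chosen with earlier results of these data known, and the named genes follow a rule: the 8, called list members, or up to 2 of each list by smallest p, and fixed partner genes. A few genes that the rule names are not reported here. There were 17 alternatives, on the pseudocount, filter, scaling, eBayes, library weights, replicate block, biotype and left-out libraries.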

Additional observations from a re-analysis of the deposited data

How the results depend on the processing

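All 17 alternatives kept the direction of Stat2, Stat3, Stat4, Stat6, Socs1 and Socs3. The log2 fold change of Jak2 turned positive with library weights (0.044) and without BMPR1a-deficient replicate 1 (0.090), and ran from -0.16 to 0.090 over the left-out libraries. That of Tyk2 turned negative with upper-quartile scaling (-0.0099), quantile normalization (-0.0041) and without WT replicate 2 (-0.024), and ran from -0.024 to 0.070. The count of the 8 genes called, 0 with all libraries, was 1 (Stat4, lower) with library weights, and ran from 0 to 1 when each library was left out. Bmpr1a kept its side of the threshold in the 15 alternatives that tested it.

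Over all genes 143 were called, 100 higher and 43 lower. Library weights gave 1240 (833 and 407), protein-coding genes only 296 (202 and 94), and the replicate block 10 (5 and 5). A filter at a mean FPKM of 5 gave 27 lower and quantile normalization 70 lower. Of the calls 69.9% were higher, against 55.7% with quantile normalization and 50% with the block. Leaving out each library gave 22 to 231 calls, 15 to 150 higher and 7 to 81 lower. Fits with fewer libraries have less power. The labels do not pair the same-numbered libraries, and the correlations of their deviations were 0.010, 0.064 and 0.052. Those of differently numbered libraries ran from -0.093 to 0.041. BMPR1a-deficient replicates 2 and 3 correlated best with the WT replicate of the same number, and replicate 1 with WT replicate 2 (0.028). These values do not settle whether the libraries were paired. With the replicate block, 0 of the 8 genes were called, with Stat4 at an adjusted p of 0.225 in limma. With 3 libraries a group, a miss of the threshold does not show that a gene is unchanged.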
